A study of Homo sapiens with 12 samples.

Results

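Telomerase and shelterin genes are described here in human acute myeloid leukemia (AML) cells. The RNA-binding protein IGF2BP3 was knocked down in these cells or targeted for degradation. The set holds 10 genes of 32321 listed in at least 1 of 4 deposited tables, and each was found by its exact symbol. TERT encodes the catalytic subunit of telomerase. DKC1, NHP2 and NOP10 encode proteins that hold the telomerase RNA, WRAP53 encodes its trafficking factor, and TERF1, TERF2, TINF2, POT1 and ACD encode subunits of shelterin. All 10 had a row and an adjusted p in every table, so none was lost to the filter on low counts. The members were chosen by their known roles with the deposited fold changes and adjusted p of all 4 tables already seen, so the values below are a description and the deposited p-values are no independent evidence.

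The study compared 6 groups of 2 libraries. MOLM13 cells, an AML line, received lentivirus with the hairpin shBP3-1 (hairpin 1), with the hairpin shBP3-2 (hairpin 2) or with the control hairpin shNS. U937 cells, a monocytic leukemia line, had a mini-auxin-inducible degron (mAID) on their IGF2BP3 in every group and were held in 5-Ph-IAA, an auxin analogue that triggers degradation of the fused protein, for 6 h or 24 h, or were left untreated (NT). The labels name total RNA for MOLM13 and mRNA for U937, while the protocol for all libraries describes bead capture of mRNA. Whether the lines were single clones, and whether the 2 libraries of a group came from separate cultures, is not given in the sources used here, and the spread behind the p-values may be technical.

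Telomerase adds telomeric repeats to chromosome ends: the reverse transcriptase TERT copies a template in the RNA TERC. Dyskerin (DKC1), NHP2 and NOP10 bind the H/ACA domain of that RNA, and the same proteins, with GAR1, form the particles that guide pseudouridine formation in ribosomal RNA. Shelterin is the protein complex that coats telomeric DNA, marks it as a natural end and recruits telomerase. Most mature blood cells hold little telomerase, whereas leukemia cells commonly keep TERT on.

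The promoters of the catalytic subunit and of the 3 RNA-binding partners are shown because these are the telomerase components proper. Each sequence is the 250 bases before the annotated start, read 5′ to 3′ on the gene's strand from RefSeq (GRCh38.p14). Capitals mark the E-box CACGTG, which MYC and MAX can bind, and the GC box GGGCGG or its reverse complement CCGCCC, which Sp1 can bind. The stretches lie at chr5:1295069-1295318 (TERT, minus strand), chrX:154762614-154762863 (DKC1, plus strand), chr5:178153886-178154135 (NHP2, minus strand) and chr15:34343137-34343386 (NOP10, minus strand).
TERT: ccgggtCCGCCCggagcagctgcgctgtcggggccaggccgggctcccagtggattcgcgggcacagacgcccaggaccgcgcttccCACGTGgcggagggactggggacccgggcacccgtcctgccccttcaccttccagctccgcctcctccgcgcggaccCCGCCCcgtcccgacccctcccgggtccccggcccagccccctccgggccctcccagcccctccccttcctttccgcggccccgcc
DKC1: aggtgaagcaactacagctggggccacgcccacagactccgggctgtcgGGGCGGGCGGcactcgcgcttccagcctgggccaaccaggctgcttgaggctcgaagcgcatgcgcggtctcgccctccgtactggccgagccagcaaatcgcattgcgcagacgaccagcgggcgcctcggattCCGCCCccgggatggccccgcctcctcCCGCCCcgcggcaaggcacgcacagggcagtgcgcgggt
NHP2: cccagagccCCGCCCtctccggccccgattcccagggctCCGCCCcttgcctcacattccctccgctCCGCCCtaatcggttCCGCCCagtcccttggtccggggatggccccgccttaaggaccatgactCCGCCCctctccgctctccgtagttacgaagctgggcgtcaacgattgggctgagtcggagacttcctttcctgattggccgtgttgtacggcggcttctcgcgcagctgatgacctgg
NOP10: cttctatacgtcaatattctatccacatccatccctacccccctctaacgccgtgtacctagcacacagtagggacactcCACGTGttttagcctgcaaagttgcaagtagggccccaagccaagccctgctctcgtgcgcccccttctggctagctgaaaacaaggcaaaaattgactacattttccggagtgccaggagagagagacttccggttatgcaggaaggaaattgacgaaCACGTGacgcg

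In windows that run from 250 bases before to 50 bases from the start, an E-box was found in TERT (1) and NOP10 (2), that is in 2 of 11 windows of the 8 members that have one. In all, 7.26% of 35116 RefSeq windows hold it. The GC box was found in 9 of the 11 windows, against 45.0% of all windows, and the 2 without it are among the 3 of WRAP53. It had 3 matches in TERT, 4 in DKC1, of which 2 overlap, and 5 in NHP2. The ETS letters CCGGAAG were found in NOP10 and TINF2 (10.3% of all promoters) and the E2F letters GCGGGAA in ACD (6.55% of all promoters), each on either strand. The windows differ in base composition, which bears on GC-rich motifs: 77.3% of the TERT window, 72.3% of that of DKC1 and 54.7% of that of NOP10 are G or C, and the median promoter has 58.7%. A match is a description of letters and no evidence of binding.

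**Figure D1:**
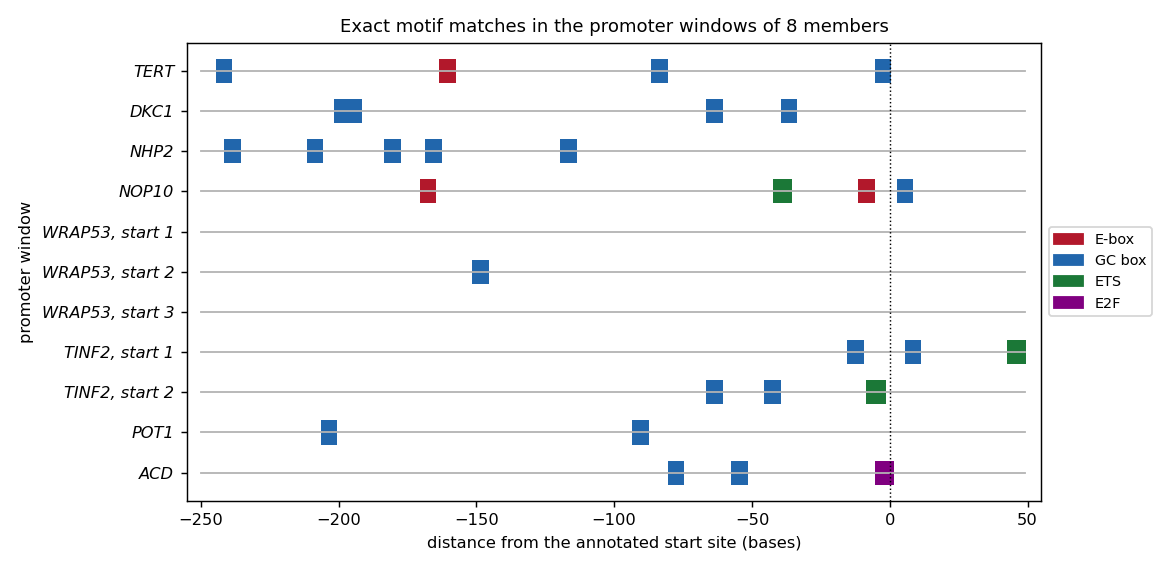
Exact matches of 4 motifs (colours) in the RefSeq promoter windows of 8 members, by distance from the annotated start in bases; each row is 1 window, and the dotted line is the start. E-boxes appear in the TERT and NOP10 windows, and GC boxes in at least 1 window of each of the 8 genes.

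Each gene's row holds its mean normalised read count over the 4 libraries compared, its log2 fold change and its adjusted p, and no value per library. Means of a group were therefore worked out from the mean count and the fold change, and carry no SD. The mean counts summed to 2.25e+07 and 2.20e+07 reads in the tables of hairpin 1 and hairpin 2, and to 1.18e+07 and 1.24e+07 in those of 6 h and 24 h. IGF2BP3 mRNA itself averaged 768 normalised reads with hairpin 1 against 1922 in shNS cells, and 918 with hairpin 2 against 1880 in shNS cells, worked out from the authors' deposited tables, in which both falls passed the threshold (adjusted p = 2.3e-28 and 1.6e-26 from DESeq2). The degron acts on the protein, which was not analysed here. In the authors' deposited tables the log2 fold change of the IGF2BP3 mRNA was -0.27 at 6 h, with an adjusted p of 0.17, and 0.15 at 24 h, with an adjusted p of 0.25 (DESeq2). Exons of MALSU1 on the opposite strand cover 35.8% of the IGF2BP3 exon length, so reads of that pair may be mixed. The words rose and fell are kept for genes with a DESeq2 adjusted p under 0.05 as deposited by the authors. Intervals are 95% intervals that assume a normal (Wald) test behind that p.

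The order of the control levels, per kilobase of annotated exon, set TERT at the bottom in both lines. In shNS cells of MOLM13, TERT had 55.7 normalised reads per kb, the lowest of the 10, next to WRAP53 with 82.5 and ACD with 139. The genes of the H/ACA proteins stood at the top there, with 2812 reads per kb for DKC1, 2307 for NOP10 and 2173 for NHP2. That is 39.0 to 50.5 times the TERT level. The other 4 shelterin genes lay between, at 246 reads per kb for TERF1, 305 for POT1, 336 for TERF2 and 419 for TINF2. In untreated U937 cells TERT had 12.2 normalised reads per kb, again below WRAP53 (52.2), while NOP10 (1668), NHP2 (1509) and DKC1 (990) led. The shelterin genes of untreated U937 cells kept to a narrow range, from 114 reads per kb (POT1) to 175 (TINF2). No spread over libraries was held, so whether neighbours in these orders differ was not tested, and the scales of the lines were set separately.

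**Figure D2:**
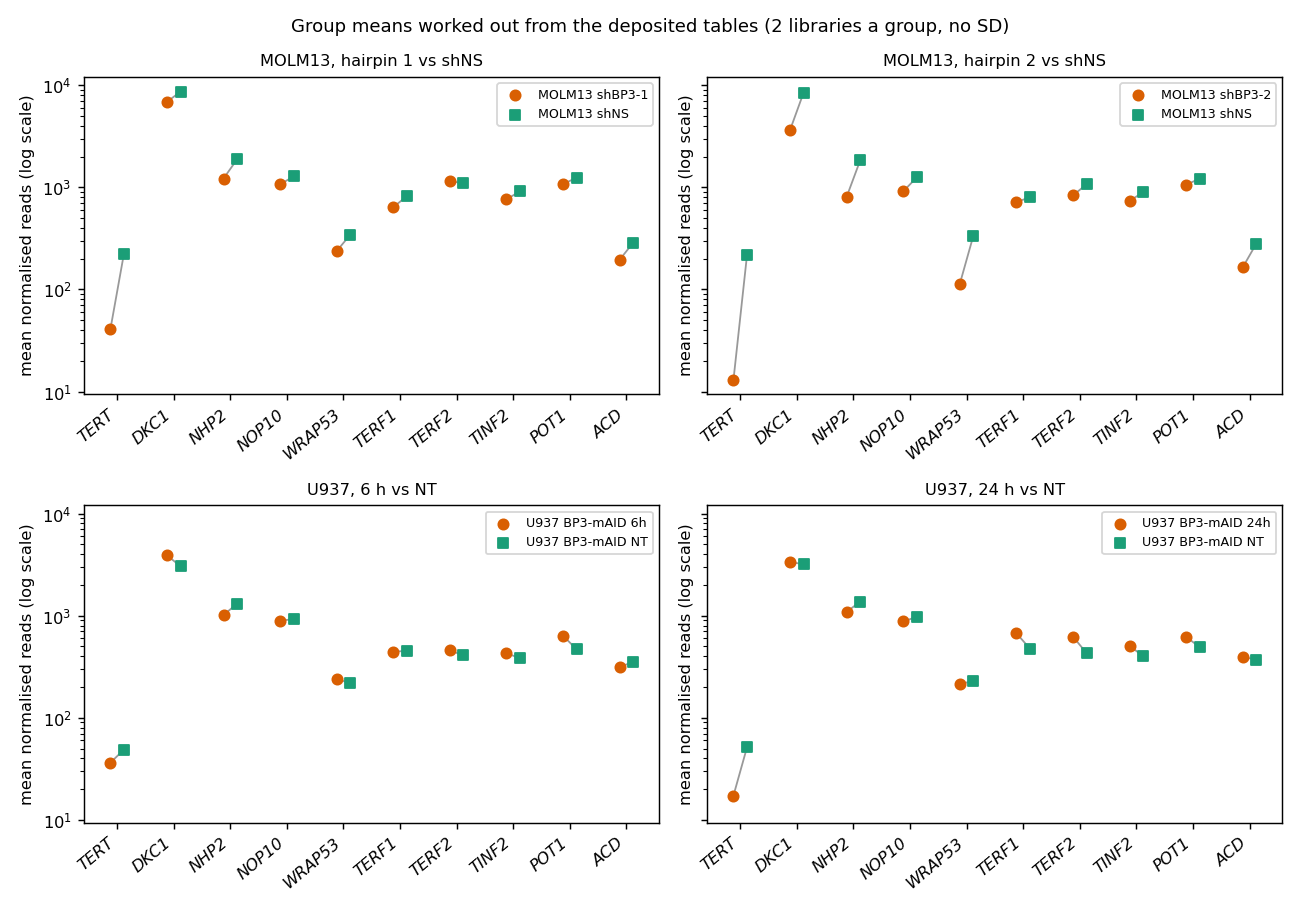
Mean normalised reads (log axis, not per length) of the 10 genes in each treated group (circles) and its control (squares), 1 panel for each deposited comparison; group means were worked out from mean count and fold change, with 2 libraries a group and no SD. TERT sits lowest in every panel, with 13.0 reads with hairpin 2 against 219 in shNS cells.

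TERT, the reverse transcriptase (ENSG00000164362.21, chromosome 5, 1253147 to 1295069 in GENCODE 29, minus strand, hg38), had the largest fall of the 10 in both knockdowns. It averaged 40.6 normalised reads with hairpin 1 against 224 in shNS cells, and 13.0 with hairpin 2 against 219 in shNS cells, worked out from the authors' deposited tables. In shBP3-1 cells 18.1% of the control level was thus left (interval 12.1 to 27.1%), and in shBP3-2 cells 5.95% (3.55 to 9.97%). The log2 fold change in the authors' deposited table was -2.46 with hairpin 1 (SE 0.30, DESeq2 adjusted p = 2.4e-15), lower than that of all but 0.215% of the 16282 tested genes. With hairpin 2 it was -4.07 in the authors' deposited table (SE 0.38, DESeq2 adjusted p = 1.4e-25), and 0.366% of 20768 tested genes lay lower. Both comparisons use the same 2 shNS libraries, so the falls are not independent of each other. In bulk RNA, fewer cells that hold a transcript and less of it per cell cannot be told apart.

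In the controls, TERT had fewer normalised reads in U937 than in MOLM13, on a separately set scale, and its SEs were larger in U937. It averaged 36.3 normalised reads at 6 h against 48.8 in untreated cells, a log2 fold change of -0.43 that did not pass the threshold in the authors' deposited table (interval -1.29 to 0.43, DESeq2 adjusted p = 0.55). At 24 h it had fallen to 17.3 normalised reads, against 51.6 in untreated cells on that table's scale. In the authors' deposited table the change at 24 h was -1.57 on the log2 scale (interval -2.42 to -0.73, DESeq2 adjusted p = 0.0011), and 1.20% of 16104 tested genes lay lower. Counting of reads alone would give a SE of 0.22 of the 0.44 found at 6 h and 0.28 of the 0.43 at 24 h, beside 0.17 of 0.30 with hairpin 1 and 0.29 of 0.38 with hairpin 2. Where a mean count of at least 50 is asked for, TERT at 24 h, with a mean of 34.4, is no longer called.

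The log2 fold change of TERT with hairpin 2 differed from that with hairpin 1 by -1.61 (SE 0.48, interval -2.55 to -0.66). Between the times the difference of 24 h from 6 h was -1.15 (SE 0.62, interval -2.35 to 0.06). These SEs count the shared controls as separate and are therefore too large, and the differences were not tested, because the set was chosen with all 4 tables known.

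Only protein-coding genes near TERT were searched. The nearest of them with a row in the tables was CLPTM1L, which lies 22675 bases away. Its log2 fold changes in the authors' deposited MOLM13 tables were 0.26 (hairpin 1, DESeq2 adjusted p = 0.54) and -0.40 (hairpin 2, DESeq2 adjusted p = 0.0021). In U937 the authors' deposited tables give -0.45 for 6 h and -0.39 for 24 h, with DESeq2 adjusted p of 0.0013 and 0.074. This neighbour was picked out after its values were seen.

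DKC1 encodes dyskerin, the pseudouridine synthase of the H/ACA particle (ENSG00000130826.18, chromosome X, 154762742 to 154777689, plus strand). It averaged 6851 normalised reads with hairpin 1 against 8659 in shNS cells, and 3639 with hairpin 2 against 8470 in shNS cells, worked out from the authors' deposited tables. Both falls passed the threshold in the authors' deposited tables, at log2 fold changes of -0.34 (SE 0.08, DESeq2 adjusted p = 0.00025) and -1.22 (SE 0.07, DESeq2 adjusted p = 1.4e-73). The difference of hairpin 2 from hairpin 1 was -0.88 (SE 0.11). In U937 the gene went the other way at 6 h, with 3890 normalised reads at 6 h against 3049 in untreated cells, a rise of 0.35 on the log2 scale in the authors' deposited table (SE 0.05, DESeq2 adjusted p = 1.8e-10). At 24 h it averaged 3323 reads against 3211 in untreated cells, a log2 fold change of 0.05 in the authors' deposited table (interval -0.04 to 0.14, DESeq2 adjusted p = 0.44).

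NHP2, a small RNA-binding protein of the same particle (ENSG00000145912.9, chromosome 5, 178149460 to 178153967, minus strand), was the one member that fell in all 4 tables. It averaged 1218 normalised reads with hairpin 1 against 1880 in shNS cells, and 806 with hairpin 2 against 1839 in shNS cells. In U937 it averaged 1017 at 6 h against 1305 in untreated cells, and 1087 at 24 h against 1375 in untreated cells. The log2 fold changes in the authors' deposited tables were -0.63 (hairpin 1), -1.19 (hairpin 2), -0.36 (6 h) and -0.34 (24 h), with SEs of 0.12, 0.11, 0.09 and 0.07 and DESeq2 adjusted p of 3.5e-06, 1.8e-26, 0.00025 and 7.2e-06. A share of 43.8% of the NHP2 exon length overlaps exons of RMND5B on the opposite strand, and whether reads were counted by strand is not given in the sources used here, so reads of the pair may be mixed. RMND5B itself stood at 0.01, 0.22, -0.06 and -0.21 on the log2 scale in the same order of the authors' deposited tables, of which the change at 24 h passed the threshold (DESeq2 adjusted p = 0.010).

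NOP10, the smallest protein of the particle (ENSG00000182117.6, chromosome 15, 34341713 to 34343177, minus strand), moved least of these genes in MOLM13. It averaged 1069 normalised reads with hairpin 1 against 1278 in shNS cells, and 913 with hairpin 2 against 1250 in shNS cells. The fall with hairpin 2 passed the threshold (-0.45, SE 0.11, DESeq2 adjusted p = 0.00029) in the authors' deposited table and the change with hairpin 1 did not (-0.26, adjusted p = 0.11). In U937 its log2 fold changes in the authors' deposited tables were -0.05 at 6 h and -0.15 at 24 h (DESeq2 adjusted p = 0.79 and 0.14).

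WRAP53, whose protein TCAB1 carries the telomerase RNA to Cajal bodies (ENSG00000141499.17, chromosome 17, 7686071 to 7703502, plus strand), averaged 238 normalised reads with hairpin 1 against 344 in shNS cells, and 113 with hairpin 2 against 336 in shNS cells. These falls had log2 fold changes of -0.53 (SE 0.20, DESeq2 adjusted p = 0.028) and -1.57 (SE 0.22, DESeq2 adjusted p = 5.9e-12) in the authors' deposited tables, the second being the next largest after TERT. The difference of hairpin 2 from hairpin 1 was -1.04 (SE 0.30). In U937 its log2 fold changes were 0.14 at 6 h and -0.10 at 24 h (adjusted p = 0.67 and 0.69) in the authors' deposited tables from DESeq2.

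Of the 5 shelterin genes, 2 fell with hairpin 1, where 16.0% of all tested genes fell, and 3 with hairpin 2, where 22.1% fell. None rose with either, and the medians of their log2 fold changes were -0.26 and -0.28. The falls of TERF2 and TINF2 with hairpin 2 were no longer called when values were centred on genes whose mean count reached 1000, which leaves ACD. In U937, 1 of 5 rose at 6 h, where 10.9% of all tested genes rose, and 4 of 5 at 24 h, where 18.9% rose, with medians of 0.16 and 0.33, and none fell.

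ACD encodes TPP1, the subunit that recruits telomerase (ENSG00000102977.17, chromosome 16, 67657512 to 67660815, minus strand). It fell with both hairpins: 195 normalised reads with hairpin 1 against 287 in shNS cells, and 164 with hairpin 2 against 281 in shNS cells. The log2 fold changes in the authors' deposited tables were -0.56 (SE 0.21, DESeq2 adjusted p = 0.025) and -0.77 (SE 0.22, DESeq2 adjusted p = 0.0014). Of these 5 shelterin genes it was the one not called in U937 at 24 h, at 396 normalised reads against 370 in untreated cells (log2 fold change 0.10, DESeq2 adjusted p = 0.58 in the authors' deposited table).

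TERF1 and TERF2 encode TRF1 and TRF2, the paralogs that bind double-stranded telomeric DNA. TERF1 (ENSG00000147601.15, chromosome 8) averaged 639 normalised reads with hairpin 1 against 818 in shNS cells, and 714 with hairpin 2 against 801 in shNS cells. Only the change with hairpin 1 passed the threshold among the MOLM13 tables (-0.36, DESeq2 adjusted p = 0.032), against -0.16 with hairpin 2 (adjusted p = 0.34) in the authors' deposited tables. TERF2 (ENSG00000132604.11, chromosome 16, 69355561 to 69408571, minus strand) had the opposite pattern of calls, with 1154 normalised reads with hairpin 1 against 1092 in shNS cells (0.08, DESeq2 adjusted p = 0.66), and 833 with hairpin 2 against 1068 in shNS cells (-0.36, DESeq2 adjusted p = 0.0028) in the authors' deposited tables. In U937 at 24 h both rose, TERF1 to 673 normalised reads against 474 in untreated cells and TERF2 to 623 against 430 in untreated cells. These rises of 0.50 and 0.54 on the log2 scale (SE 0.11 each) had DESeq2 adjusted p of 1.5e-05 and 3.7e-06 in the authors' deposited table. At 6 h the values had been -0.02 for TERF1 and 0.16 for TERF2 (adjusted p = 0.95 and 0.46 in the authors' deposited table).

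TINF2 encodes TIN2, which bridges the other subunits (ENSG00000092330.18, chromosome 14, 24239643 to 24242674, minus strand), and POT1 binds the single-stranded overhang (ENSG00000128513.16, chromosome 7, 124822386 to 124929983, minus strand). TINF2 averaged 762 normalised reads with hairpin 1 against 914 in shNS cells, and 736 with hairpin 2 against 894 in shNS cells. The authors' deposited tables give it -0.26 with hairpin 1 (DESeq2 adjusted p = 0.11) and -0.28 with hairpin 2 (DESeq2 adjusted p = 0.044). POT1 averaged 1070 normalised reads with hairpin 1 against 1246 in shNS cells, and 1057 with hairpin 2 against 1219 in shNS cells. Its changes of -0.22 and -0.21 did not pass the threshold (DESeq2 adjusted p = 0.14 and 0.095 in the authors' deposited tables). In U937, POT1 rose at both times, to 637 normalised reads at 6 h against 467 in untreated cells and to 619 at 24 h against 491 in untreated cells (0.45 and 0.33 on the log2 scale, DESeq2 adjusted p = 0.0021 and 0.012 in the authors' deposited tables). TINF2 rose at 24 h, to 506 normalised reads against 402 in untreated cells (0.33, DESeq2 adjusted p = 0.011 in the authors' deposited table), after 0.17 at 6 h (adjusted p = 0.46).

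**Figure D3:**
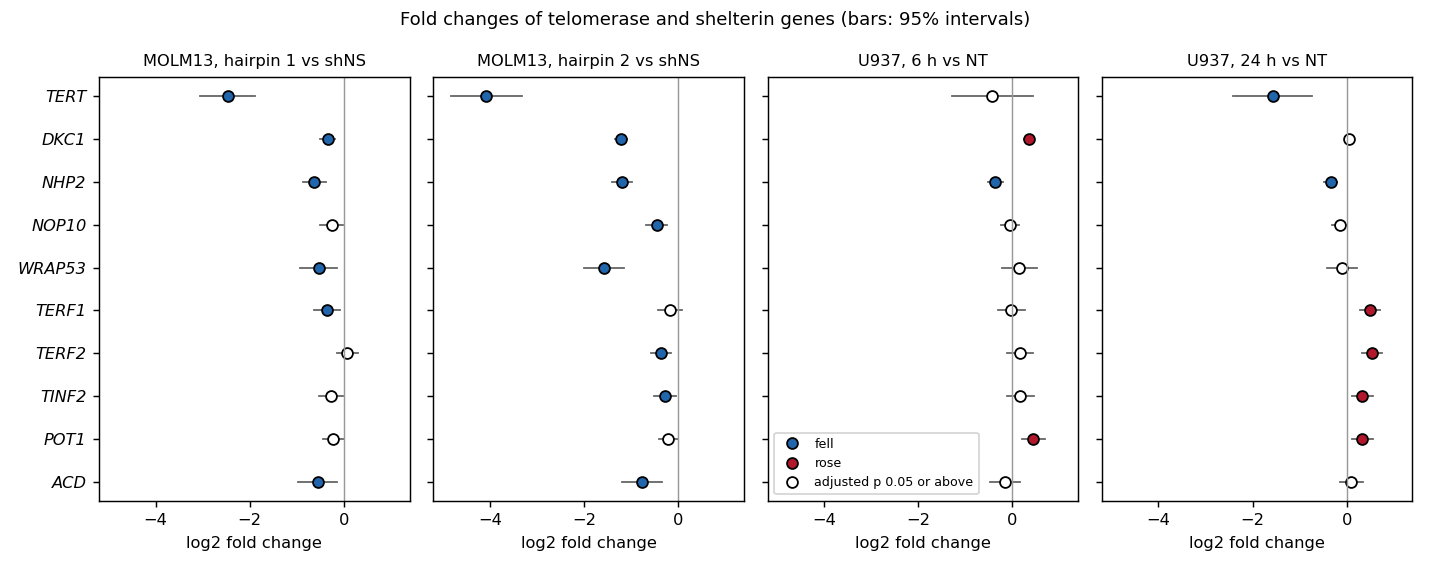
Log2 fold changes (horizontal axis) of the 10 genes in the 4 deposited comparisons, with 95% intervals; blue points fell, red points rose and open points had an adjusted p of 0.05 or above. TERT lies far left in both MOLM13 panels and at 24 h, while the shelterin points lie left of or near 0 in MOLM13 and, for 4 of 5, right of 0 as called rises at 24 h in U937.

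Counted together, 6 of the 10 members fell and none rose with hairpin 1, where 16.0% of all tested genes fell, 17.7% rose and 33.7% changed either way. With hairpin 2, 8 fell and none rose, where 22.1% of all tested genes fell, 19.4% rose and 41.5% changed either way. At 6 h 1 fell and 2 rose, beside 12.3% and 10.9% of all tested genes and 23.2% either way. At 24 h 2 fell and 4 rose, beside 19.9% and 18.9% of all tested genes and 38.8% either way. Since the set was chosen with these tables known, the shares stand beside each other without a reading. The median log2 fold change of the members was -0.35, -0.61, 0.06 and 0.07 in the order hairpin 1, hairpin 2, 6 h and 24 h, and that of all tested genes -0.01, 0.02, 0.01 and 0.01. Genes whose mean count reached 1000 had a median of -0.12 with hairpin 2. Relative to that shift, TERF2 stood at -0.24 and TINF2 at -0.16. A normal (Wald) test on such centred values, adjusted anew, gave adjusted p of 0.058 and 0.29, in place of the deposited DESeq2 values of 0.0028 and 0.044. TERF2 and TINF2 were thus no longer called, whereas the other 6 falls with hairpin 2 were.

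The remaining shelterin subunit, RAP1 (TERF2IP), and the telomerase RNA were outside the set. TERF2IP averaged 1054 normalised reads with hairpin 1 against 958 in shNS cells (0.14, DESeq2 adjusted p = 0.42), and with hairpin 2 was at 78.7% of the shNS level (-0.35, DESeq2 adjusted p = 0.0069), by the authors' deposited tables. It was at -0.03 at 6 h and 0.03 at 24 h (DESeq2 adjusted p = 0.91 and 0.87) in the authors' deposited tables. TERC, which carries no ordinary poly(A) tail when mature, had a mean count of 0.742 in the authors' deposited table of hairpin 1 and 0.991 in that of hairpin 2, too low for an adjusted p. In the U937 tables TERC had no row.

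Among 18 genes of telomerase and H/ACA assembly, 5 fell and 1 rose of 17 tested with hairpin 1 (median -0.24), and 13 fell and 2 rose with hairpin 2 (median -0.84). Over all tested genes, 16.0% fell and 17.7% rose with hairpin 1, and 22.1% fell and 19.4% rose with hairpin 2. The chaperone HSP90AA1 fell by 1.66 on the log2 scale with hairpin 2 in the authors' deposited table (DESeq2 adjusted p = 2.6e-169). With hairpin 1 it stood at 0.17 (DESeq2 adjusted p = 0.091). ZCCHC8, part of a nuclear RNA-decay complex, fell by 0.85 with hairpin 1 (DESeq2 adjusted p = 2e-14). With hairpin 2 ZCCHC8 stood at -1.09 (DESeq2 adjusted p = 8.4e-34) in the authors' deposited table. GAR1, the fourth H/ACA protein, stood at -0.22 with hairpin 1 (DESeq2 adjusted p = 0.27) and fell by 1.05 with hairpin 2 (DESeq2 adjusted p = 7.5e-11) in the authors' deposited tables. TEP1, a telomerase-associated protein, rose with both hairpins (0.50 and 0.68, DESeq2 adjusted p = 3.1e-06 and 2e-18, in the authors' deposited tables). In U937, 3 fell and 2 rose of 16 tested at 6 h, and 6 fell and 2 rose of 17 at 24 h. The shares over all tested genes there were 12.3% fallen and 10.9% risen at 6 h, and 19.9% and 18.9% at 24 h. Among list genes with a mean of at least 50 reads, the co-chaperone PTGES3 was the lowest called at 24 h (-0.53, DESeq2 adjusted p = 8.7e-32) and the Cajal body protein COIL the highest (0.87, DESeq2 adjusted p = 2.5e-19) in the authors' deposited table. SMN1, which has a near-identical copy and is uncertain for that reason, fell further with hairpin 1 and at 24 h (-2.02 and -2.07, DESeq2 adjusted p = 0.00089 and 0.043, in the authors' deposited tables) at mean counts of 37.1 and 10.0. The genes of the 4 box C/D proteins, partners in the other class of small nucleolar particle, fell in all 4 cases with each hairpin (medians -0.46 and -1.25). They were led by FBL, which encodes the methyltransferase fibrillarin, at -0.97 and -1.55 in the authors' deposited tables. In U937, 1 of them fell and 1 rose at 6 h, and 3 fell at 24 h, where SNU13 was lowest (-0.48) in the authors' deposited table.

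Of 18 shelterin partners and end-processing genes, 8 fell and 4 rose of 17 tested with hairpin 1 (median -0.20), and 11 fell and 3 rose of 18 with hairpin 2 (median -0.36). Beside them, 16.0% of all tested genes fell and 17.7% rose with hairpin 1, and 22.1% fell and 19.4% rose with hairpin 2. The dNTP hydrolase SAMHD1 rose furthest with hairpin 1 (1.76, adjusted p = 2e-107) and hairpin 2 (0.76, adjusted p = 3.3e-32) in the authors' deposited tables from DESeq2. In U937 it stood at -0.16 at 6 h (DESeq2 adjusted p = 0.73) and fell at 24 h (-0.59, DESeq2 adjusted p = 0.025), in the authors' deposited tables. The telomere- and RNA-binding protein gene HNRNPA1 was lowest with hairpin 1 (-1.04, adjusted p = 2.7e-38) and the exonuclease EXO1 with hairpin 2 (-2.72, adjusted p = 2.7e-129) in the authors' deposited tables from DESeq2. In U937, 2 fell and 2 rose at 6 h, and 7 fell and 4 rose at 24 h, of 17 tested each time. Among all tested genes 12.3% fell and 10.9% rose at 6 h, near the shares of this list. At 24 h 19.9% of all tested genes fell and 18.9% rose. EXO1 was lowest (-1.24) and TNKS, whose product modifies TRF1, highest (0.70) at 24 h in the authors' deposited table.

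The genes of telomere replication and of the recombination-based pathway (ALT) fell in 15 of 18 cases with hairpin 1 (median -0.88). With hairpin 2 all 18 fell (median -1.55). At 6 h 4 fell and 2 rose (median -0.07), and at 24 h 13 fell and 3 rose (median -0.48). Over all tested genes, 16.0% fell and 17.7% rose with hairpin 1, and 22.1% fell and 19.4% rose with hairpin 2. In U937 12.3% fell and 10.9% rose at 6 h, and 19.9% fell and 18.9% rose at 24 h. The primase subunit PRIM1 fell furthest with hairpin 1 (-1.14, DESeq2 adjusted p = 1.4e-13) and the flap endonuclease FEN1 with hairpin 2 (-2.93, DESeq2 adjusted p = 2.7e-126) and at 24 h (-1.44, DESeq2 adjusted p = 2.4e-73), in the authors' deposited tables. ATRX, a chromatin remodeller whose loss is known in ALT tumours, was the least lowered called gene with hairpin 2 (-0.42) and rose at 24 h (0.66, DESeq2 adjusted p = 7.2e-28) in the authors' deposited tables.

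Of 20 genes for factors that act on the TERT promoter, 12 fell and 4 rose with hairpin 1 (median -0.29) and 11 fell and 4 rose with hairpin 2 (median -0.35). At 6 h 1 fell and 6 rose, and at 24 h 5 of each, of 19 tested. Over all tested genes, 16.0% fell and 17.7% rose with hairpin 1, and 22.1% and 19.4% with hairpin 2. The same shares were 12.3% and 10.9% at 6 h, and 19.9% and 18.9% at 24 h. E2F1 was lowest with hairpin 1 (-1.07), hairpin 2 (-2.67) and at 24 h (-1.50), in the authors' deposited tables (DESeq2 adjusted p = 2.6e-12, 6.7e-58 and 9.4e-37), and it rose at 6 h (0.57, DESeq2 adjusted p = 2.4e-07). The highest were KLF4 with hairpin 1 (1.20), the MAX partner MXD1 with hairpin 2 (1.32) and MXD4, another MAX partner that opposes MYC, at 24 h (1.66), in the authors' deposited tables. MYC averaged 3517 normalised reads with hairpin 1 against 6921 in shNS cells, and 2367 with hairpin 2 against 6769 in shNS cells. At 6 h it averaged 3630 against 3916 in untreated cells, and at 24 h 2928 against 4123 in untreated cells. It fell with hairpin 1, with hairpin 2 and at 24 h (-0.98, -1.52 and -0.49, DESeq2 adjusted p = 6.3e-22, 7e-89 and 3e-27) and stood at -0.11 at 6 h (adjusted p = 0.086), by the authors' deposited tables. MXD4 rose in all 4, by 0.63, 1.26, 0.96 and 1.66 in the authors' deposited tables. GABPA, an ETS factor, fell with hairpin 1 (-0.32) and hairpin 2 (-0.74) and was at 0.11 and 0.09 at 6 h and 24 h (DESeq2 adjusted p = 0.44 at both), in the authors' deposited tables. MYC, MXD4 and GABPA were picked out after their values were seen.

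Markers of cell division and of the myeloid lineage moved beside TERT, and their part in its change was not tested. For the counts below, 16.0% of all tested genes fell and 17.7% rose with hairpin 1, and 22.1% and 19.4% with hairpin 2. The same shares were 12.3% and 10.9% at 6 h, and 19.9% and 18.9% at 24 h. All 10 proliferation markers fell with each hairpin, their summed means being 29198 with hairpin 1 against 63656 in shNS cells, and 10185 with hairpin 2 against 62262 in shNS cells. In U937 the sums were 62315 at 6 h against 65747 in untreated cells, with 4 falls and 1 rise, and 53695 at 24 h against 69223 in untreated cells, with 7 falls and 2 rises. The 10 myeloid markers hold maturation markers such as LYZ and CD14, the granule enzymes ELANE and MPO, and the progenitor markers KIT and CD34, so the list has no single direction. Of them 5 rose and 1 fell with each hairpin (8 and 9 tested), their sum of 154418 with hairpin 1 against 33222 in shNS cells, and of 262475 with hairpin 2 against 32504 in shNS cells, being mostly lysozyme (LYZ). In U937 the same sum was 7503 at 6 h against 9934 in untreated cells, with 2 falls among 6 tested, and 8975 at 24 h against 10463 in untreated cells, with 4 rises and 2 falls among 7 tested. Most of it there was ELANE, with 7045 reads at 6 h against 9414 in untreated cells and 8064 at 24 h against 9916 in untreated cells. At 24 h LYZ rose (1.06) and so did KIT (1.99, DESeq2 adjusted p = 0.0026), while ELANE (-0.30) and the integrin ITGAM (-1.75) fell, in the authors' deposited table. As to the labelled lines, neutrophil elastase (ELANE) averaged 4072 reads in shNS cells and 9414 in untreated U937 cells. CD14 averaged 47.4 reads in shNS cells and 0.530 in untreated U937 cells, and the progenitor marker CD34 2.02 in shNS cells. The scales of the lines were set separately, so these levels cannot be compared directly between lines.

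**Figure D4:**
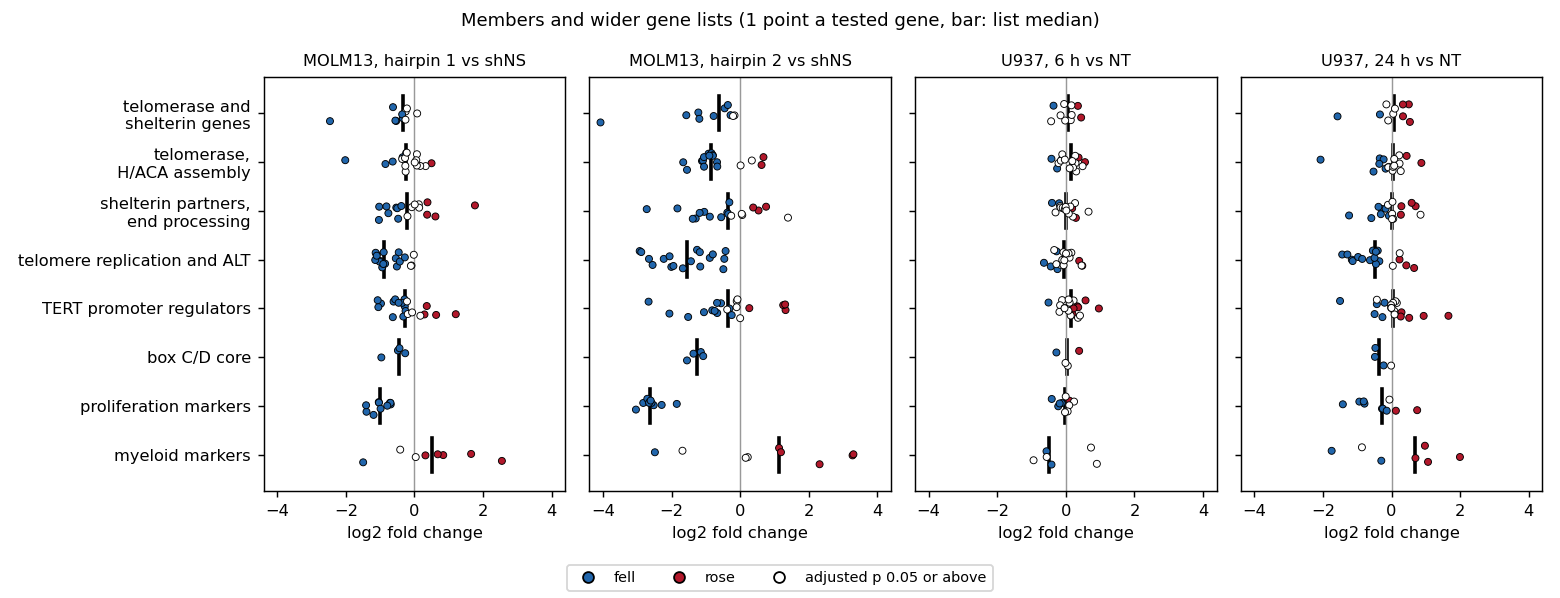
Log2 fold changes of each tested gene (1 point a gene, coloured by its call) for the 10 members and for 7 wider lists, 1 panel a comparison; the vertical spread within a row has no meaning and the black bar is the median. With hairpin 2 the replication and proliferation rows lie wholly left of 0, with medians of -1.55 and -2.63, while the members' row holds TERT far to the left of the rest.

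The genes most like TERT were sought by the root mean square difference of log2 fold change over the 4 comparisons, among 9750 genes tested in all of them with a mean count of at least 50 in each. The nearest was PHGDH, an enzyme of serine synthesis, with a difference of 0.59 on the log2 scale. It stood at -2.05, -3.04, -0.77 and -1.77 in the order hairpin 1, hairpin 2, 6 h and 24 h in the authors' deposited tables. C21orf58 (0.66), CDC45 (0.73), XRCC2 (0.73), RAD54L (0.77) and DSCC1 (0.79) followed by that measure. All 6 fell less than TERT with hairpin 1 and with hairpin 2, in the authors' deposited tables. TERT lay near the low end of all tested genes there, so that order was likely from the outset. At 24 h PHGDH (-1.77) and DSCC1 (-1.70) lay lower than TERT (-1.57), and the others lay higher. The minimum mean count was not asked of TERT itself.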

How the data were processed

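RNA-seq of 12 libraries from 2 human AML cell lines was analysed from 4 tables, 1 for each comparison. Per the submitters' processing notes, cutadapt 4.1, HISAT2 2.1.1, HTSeq 2.0.2 and DESeq2 were used with hg38. Annotation release, strand setting and any shrinkage are not given in the sources used here. Per the file headers, the deposited signal value is the DESeq2 base mean, a read count scaled by size factors and averaged by the authors across the compared libraries. The deposited log2 values are the authors' fold changes of treated over control, and the deposited p-value is the authors' adjusted one.

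With no values per library, the authors' DESeq2 statistics were used in place of an own fit, at an adjusted p under 0.05. Group means came from base mean and fold change. Control means worked out from both tables of a line differed, after scaling, by a median of 0.00843% (shNS) and 0.0428% (NT). Standard errors came from p-values recovered by undoing the Benjamini-Hochberg step, a procedure tested on simulated data. Centred values were tested again with these standard errors. Exon lengths and coordinates came from GENCODE 29 (protein-coding transcripts of the basic set), matched by Ensembl ID without version, and promoters from RefSeq (GRCh38.p14), which held 8 of the 10 members (TERF1 and TERF2 are named only). Python 3.11.15, pandas 2.3.3 and scipy 1.17.1 were used.

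Members, the 7 wider lists and the tests were chosen with earlier results of these data known. Named genes were the members, IGF2BP3, TERC, TERF2IP, the called gene at each end of a list (mean count of at least 50, MOLM13 and 24 h) and the 6 genes most like TERT. Not every gene of the rule is reported, and CLPTM1L, GAR1, SMN1, MYC, MXD4 (other than at 24 h), GABPA, ELANE, CD14, CD34 and KIT fall outside it and were picked out after their values were seen. The values of HSP90AA1 with hairpin 1, ZCCHC8 with hairpin 2 and SAMHD1 in U937 were likewise added after they were seen. The alternatives were an adjusted p under 0.01, a minimum log2 change of 1, 2 centrings and 2 filters at a mean count of 50. One overlap of exons is not reported here.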

Additional observations from a re-analysis of the deposited data

How the results depend on the processing

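Of the 40 member results, 23 were called, and the 17 others could gain no call under a stricter rule. Of the 23, 6 lost the call with an adjusted p under 0.01, 17 with a change of at least 1 on the log2 scale, 2 on centring on genes whose mean count reached 1000 and 1 where a mean count of at least 50 was required. Only the 2 centrings alter the fold changes themselves, and under them no member value changed sign. The other alternatives could change no sign. With an adjusted p under 0.01 the falls with hairpin 1 numbered 3 in place of 6 and the rises at 24 h 2 in place of 4. With a change of at least 1 on the log2 scale, 1 fall was left with hairpin 1, 4 with hairpin 2, 0 falls and 0 rises at 6 h, and 1 fall and 0 rises at 24 h. When a mean count of at least 50 was required, or p-values were adjusted again over such genes, 1 fall was left at 24 h in place of 2, because TERT lay under the minimum. Centring on genes whose mean count reached 1000 left 6 of 8 falls with hairpin 2. Over the 54 genes of the 3 telomere lists, counts of 28, 42, 9 and 26 falls moved by less than 1.5 times under the 2 alternatives run on them. No paired analysis was possible because the tables hold no values per library, and for the same reason no replicate could be left out and no edgeR or limma fit could be made. At means of 0.742 and 0.991 reads in MOLM13, no change of TERC was detectable.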
